A study of Mus musculus with 6 samples.

Results

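The genes described here encode the proteins of the mitochondrial ribosome. They were taken as every gene symbol of the deposited table that reads Mrpl or Mrps followed by digits and at most 1 lower-case letter, which gave 76 of 38926 symbols, 47 of the large subunit (Mrpl) and 29 of the small subunit (Mrps). Expression was measured by RNA sequencing in LSK cells, the lineage-negative, Sca1-positive and cKit-positive fraction of marrow that holds stem cells and multipotent progenitors. They came from femur and tibia marrow of untreated C57BL/6 mice aged 8 to 12 weeks. The labels call 3 libraries wild type (WT) and the other 3 a double knockout (KO) of the dopamine receptor genes Drd2 and Drd3. The alleles, the animals per library and whether replicates came from separate animals are not given in the sources used here. The p-values thus rest on a spread between libraries that may be technical in part or, among the WT-labelled libraries, in whole.

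The mitochondrial ribosome translates the few proteins encoded by mitochondrial DNA, all of them subunits of the respiratory chain or the ATP synthase. Its ribosomal RNAs are transcribed inside the organelle, whereas all of its proteins are encoded in the nucleus, made in the cytosol and imported. The large subunit joins amino acids and releases the chain through an exit tunnel that faces the inner membrane, and the small subunit binds and decodes the messenger RNA. Many of the proteins descend from bacterial ribosomal proteins, and others occur only in mitochondria. Stem cells of the marrow are known for low reliance on respiration, which rises as progenitors divide and differentiate.

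Values are FPKM, in which reads are divided by gene length and a depth factor for each library. Levels can thus be compared between genes as far as the gene length used fits the transcripts made. Median-of-ratios factors computed from the values were equal (1.009) in all 6 libraries. Recovered reads were 5243137 to 7142922 per library. Drd2 was listed at 0 in all 6 libraries. Drd3 was at 0 in every WT-labelled library and at 1.62, 3.08 and 3.04 FPKM in KO replicates 1, 2 and 3. This is the reverse of the order that a loss of Drd3 transcripts would give. Since the alleles are not given, neither gene could check the labels. Each direction below is thus between libraries as labelled, and WT and KO below name those labels. The gate markers Kit (82.5 to 150 FPKM) and Ly6a (110 to 161 FPKM) were present in every library and did not pass the test. Flt3 (-1.22 ± 0.12, limma adjusted p = 0.000567) and Cd34 (-0.72 ± 0.10, limma adjusted p = 0.0042), both markers of subsets within the gate, fell. The median deviation of the list of LSK genes was lowest in KO replicate 2 (-0.30), and its part in the results below was not tested. Of 5 T and NK cell genes, Cd3g was at 0 throughout and Cd3e and Cd8a were at most 0.238 FPKM, whereas Nkg7 stood at 187 to 417 FPKM and fell (-0.72 ± 0.15, limma adjusted p = 0.0193) and Klrb1c, at 0.216 to 3.32 FPKM, rose (1.16 ± 0.25, limma adjusted p = 0.0195). In Ddx3y and in plasma cell genes, KO replicates 1 and 3 stood apart from the other 4 libraries. Over all tested genes they did not, since KO replicate 2 correlated with them at 0.970 and 0.966 (Pearson, log2(FPKM + 1)). With the WT-labelled libraries it correlated at 0.949 to 0.956. KO replicates 1 and 3 held no transcripts of the Y-linked gene Ddx3y (12.5 to 15.1 FPKM elsewhere). Ddx3y was thus present in every WT-labelled library but only in replicate 2 of the KO-labelled ones. As far as this gene shows sex, sex was not balanced between the groups, and its part in the results below was not tested. KO replicate 2 also held cells of animals other than those of KO replicates 1 and 3. The summed level of 3 plasma cell genes was 3234 and 1218 FPKM in KO replicates 1 and 3 against 14.6 to 19.5 FPKM elsewhere. In bulk RNA, fewer cells of a type and less RNA per cell cannot be told apart.

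Promoters of 67 of the 76 genes were found among RefSeq's windows (build GRCm38.p6, which is mm10), each running from 250 bases before to 50 bases after a transcript start. They are shown because genes for the mitochondrial ribosome are textbook targets of the factors NRF1, GABP (an ETS factor) and YY1. The motifs were searched on both strands as GCATGCG for NRF1, CCGGAAG for ETS factors and AAGATGG for YY1, and the letters of the NRF1 motif overlap their own reverse complement. Mrpl52 (ETS and YY1 motifs), Mrps18a and Mrpl3 (an ETS motif each in the printed stretch) are among 13 members whose groups were separate below, a share (17.3%) near the 16.2% of all tested genes with KO higher. Mrpl22, which is not, carried both an NRF1 and an ETS motif. The bases just before the RefSeq start are printed 5′ to 3′ on the gene's strand, and capitals mark the motifs. In the GENCODE M21 annotation the last 29 bases printed for Mrpl3, with its motif, lie within the gene. So do 18 of those for Mrps18a and 3 of those for Mrpl22.
Mrpl52, chr14:54426809-54426908, plus strand: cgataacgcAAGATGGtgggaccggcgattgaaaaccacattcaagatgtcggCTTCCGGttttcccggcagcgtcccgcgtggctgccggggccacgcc
Mrps18a, chr17:46110944-46111003, plus strand: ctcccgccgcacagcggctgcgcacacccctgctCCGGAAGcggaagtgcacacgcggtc
Mrpl3, chr9:105053208-105053267, plus strand: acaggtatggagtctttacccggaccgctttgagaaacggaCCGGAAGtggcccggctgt
Mrpl22, chr11:58171604-58171663, plus strand: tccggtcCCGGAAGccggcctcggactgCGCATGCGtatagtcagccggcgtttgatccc

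Of the 73 windows of members, 24 (32.9%) held the ETS motif, against 8.86% of all 32851 windows and 18.6% of the 10272 windows of genes that entered the test below. The YY1 motif was in 13 member windows (17.8%, against 6.34% and 7.34%), and the NRF1 motif in 8 (11%, against 3.58% and 6.56%). Of these 8 windows, 7 belonged to the large subunit, which held 46 of the 73 (15.2% of its windows, against 3.70% in the small subunit). The ETS motif (28.3% in the large and 40.7% in the small subunit) and the YY1 motif (15.2 and 22.2%) leaned the other way. The median GC content of the members' windows was 58.3%, and that of the tested genes' windows was 60.7%. Several YY1 matches lay after the transcript start on the gene's own strand, and others lay before it. The letters of the YY1 motif include ATG, so a match after the start may hold a start codon, which was not tested. A match is a string of letters, not a measured binding site.

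Levels spanned a wide range among members. Of the 76 genes, 8 had a mean above 100 FPKM, 61 lay between 10 and 100 FPKM and 7 were lower. The median mean level was 36.0 FPKM over the 46 large subunit genes that entered the test and 29.1 FPKM over the 29 small subunit genes, against 10.4 FPKM for all tested genes. Mrpl42, which occurs only in mitochondrial ribosomes, had the highest FPKM. It was at 250, 284 and 287 FPKM in WT-labelled libraries 1, 2 and 3 and 304, 319 and 244 FPKM in KO-labelled ones. Its groups overlapped, since the library KO replicate 3 was the lowest of all.

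Next in level came Mrpl28, a protein with a bacterial counterpart, at 145 ± 15 FPKM (SD, n = 3 per group here and below) in WT-labelled libraries and 153 ± 22.1 FPKM in KO-labelled ones. Mrpl34, also of bacterial descent, followed at 142 ± 8.28 and 146 ± 1.05 FPKM. The top of the small subunit was formed by Mrps16 (127 ± 20.6 and 130 ± 8.23 FPKM), Mrps28 (107 ± 18.2 and 113 ± 22.4 FPKM) and Mrps18c (74.1 ± 11.2 and 75.1 ± 15.8 FPKM). In FPKM, Mrpl42 stood above Mrpl28 in every library by more than their spreads, whereas the values of Mrpl28 and Mrpl34, and those of Mrps16 and Mrps28, overlapped. These ranks rest on the gene length used. For Mrpl42, Mrpl28, Mrpl34 and Mrps16 it did not match the exon length in GENCODE M21. The length implied by the values was at least 666 bases for Mrpl42 and 566 for Mrps16, against 3682 and 2875 in that annotation.

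The lowest tested members were Mrps25 at 8.23 ± 1.94 and 7.83 ± 0.635 FPKM and Mrpl47, at the exit of the tunnel, at 6.64 ± 0.996 and 7.39 ± 0.727 FPKM. Mrps5 (10.1 ± 0.340 and 8.89 ± 1.32 FPKM), Mrps35 (8.22 ± 0.95 and 9.30 ± 0.497 FPKM), Mrpl1 (9.50 ± 0.210 and 9.53 ± 0.825 FPKM) and Mrpl48 (12.2 ± 0.582 and 12.7 ± 1.74 FPKM) were also among the low members. Mrpl53 alone fell below the filter of a mean of 1 FPKM, with 17 recovered reads in all and at most 1.003 FPKM per library. It has the mean nearest below the filter and Mrpl47 the nearest above. The order follows gene length as well as reads: Mrps25, over 6576 bases, had 2004 recovered reads in all and Mrps28, over 783 bases, had 3291.

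Whether the transcripts of mitochondrial ribosomal proteins differ between the labelled groups was asked with limma on log2(FPKM + 1). It was run over the 11371 genes whose mean level reached 1 FPKM. None of the 75 tested members passed at a Benjamini-Hochberg adjusted p under 0.05, 0 of 46 in the large and 0 of 29 in the small subunit, where 10.9% of all tested genes passed (5.48% higher and 5.43% lower in KO). Their smallest adjusted p was 0.0846. At an unadjusted p under 0.05, 7 of the 75 (9.33%) were higher in KO-labelled libraries and 0 were lower, against 27.5% of all tested genes in either direction, and voom on the recovered reads also called 0 members (14% of all genes). The median log2 fold change was 0.08 in the large and 0.06 in the small subunit, against -0.002 over all tested genes, that is, a level 1.05 times as high in both subunits.

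The intervals show how far a difference could reach. The 95% interval of every tested member lay within 2-fold in either direction, as it did for 83.9% of all tested genes, and for 57 of the 75 it lay within 0.5 on the log2 scale. The lowest bound was -0.50 for Mrpl21 and the highest was 0.71 for Mrpl44. No member's log2 fold change exceeded 0.5 in size, a value that 17.9% of all tested genes exceeded. The median standard error was 0.13 for members and 0.16 for all tested genes.

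**Figure D1:**
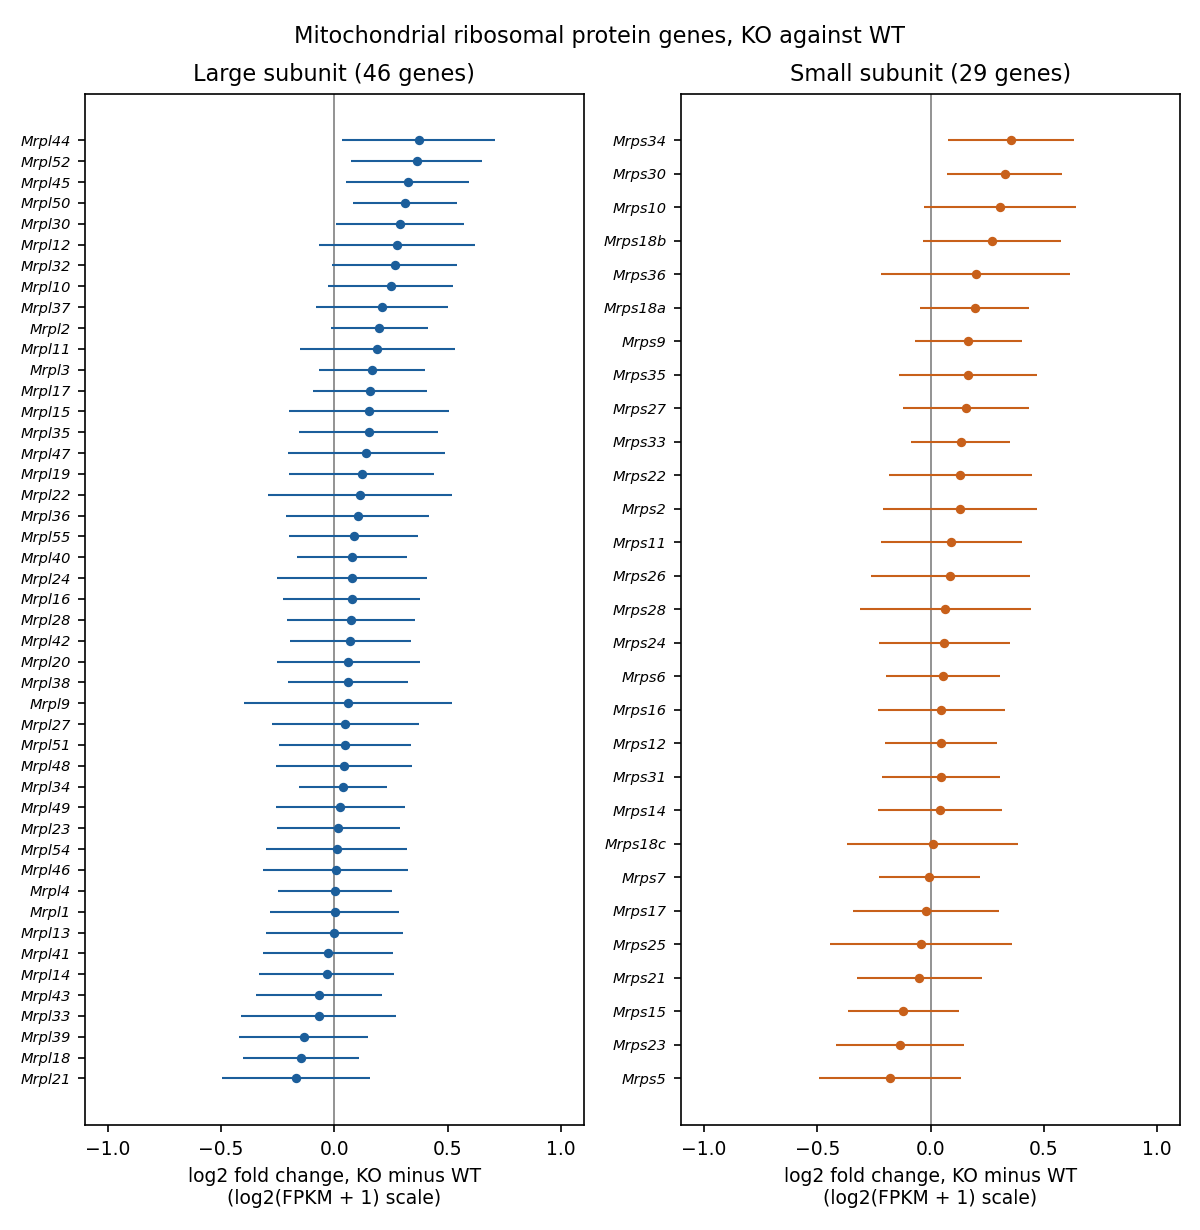
Log2 fold change between KO-labelled and WT-labelled libraries (x axis, log2(FPKM + 1) scale) for the 46 large subunit genes (left) and 29 small subunit genes (right) that were tested, ordered by value. Points are limma estimates from 3 libraries per group and bars their 95% intervals; all points lie between -0.18 and 0.37.

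The 2 subunits did not part from each other. The difference between their medians, large minus small, was 0.01 on the log2 scale, and it ran from -0.03 to 0.04 with 1 library left out at a time. Summed over members, the large subunit stood at 2243, 2420 and 2567 FPKM in WT-labelled libraries and at 2628, 2840 and 2291 FPKM in KO-labelled ones. The small subunit stood at 985, 1092 and 1190 FPKM and at 1147, 1249 and 1029 FPKM. In both subunits the groups overlapped, with the library KO replicate 3 below 2 of the WT-labelled libraries. The ratio of the summed levels, large to small, was 2.22 ± 0.0597 and 2.26 ± 0.0336.

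Symbols do not always tell the subunit. Mrps18a and Mrps30 sit in the large subunit of the mammalian mitochondrial ribosome, and Mrps36 is known as a subunit of the oxoglutarate dehydrogenase complex. Counted by structure, the medians were 0.08 for the large and 0.06 for the small subunit. Within the large subunit the median log2 fold change was 0.13 for the 8 genes at the tunnel exit, 0.05 for the 7 of the central protuberance and 0.25 for the 3 tested genes of the stalk that recruits translation factors. It was 0.08 for the 30 large subunit genes with a bacterial counterpart and 0.05 for the 16 tested without one. In the small subunit the same medians were 0.05 over 16 genes and 0.16 over 13.

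**Figure D2:**
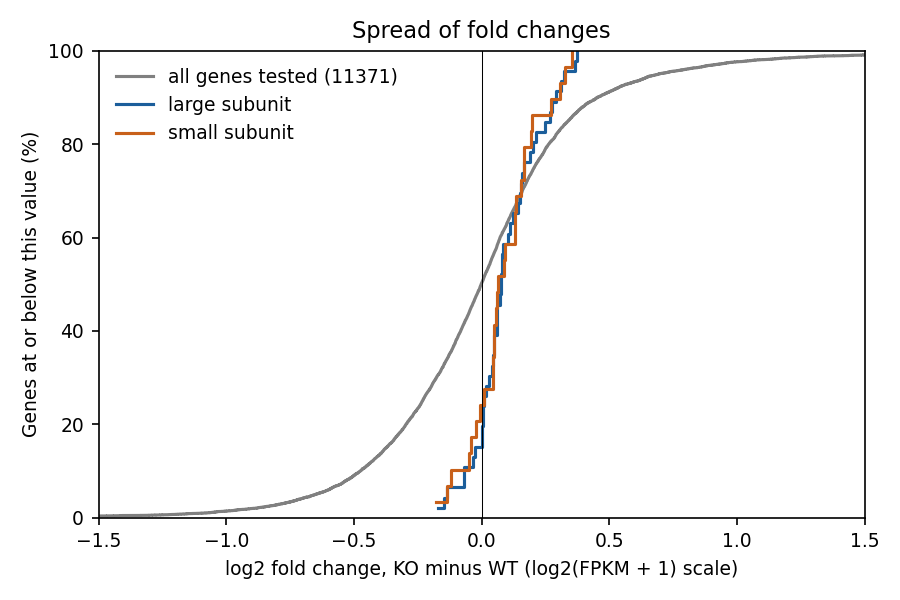
Share of genes (y axis, percent) at or below each log2 fold change between KO-labelled and WT-labelled libraries (x axis, limma on log2(FPKM + 1)) for all 11371 tested genes and for the large and small subunit; the axis is cut at -1.5 and 1.5. The curves of the 2 subunits are steep and lie close together, with medians of 0.08 and 0.06, and at 0 they hold fewer genes than the curve of all genes does.

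The small differences leaned one way. The estimate was above 0 for 60 of 75 members (80.0%), 38 of 46 in the large and 22 of 29 in the small subunit, against 49.7% of all tested genes. In 13 members every KO-labelled library lay above every WT-labelled library and in none did all lie below. Over all tested genes the groups were separate for 32.8%, with 16.2% higher and 16.6% lower in KO, so 13 of 75 (17.3%) is near the background in the upward direction. The 13 were Mrpl2, Mrpl3, Mrpl10, Mrpl37, Mrpl45, Mrpl50, Mrpl52, Mrps10, Mrps18a, Mrps18b, Mrps30, Mrps33 and Mrps34.

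Mrpl50, a large subunit protein found only in mitochondria, was at 24.6, 23.6 and 22.0 FPKM in WT-labelled libraries 1, 2 and 3 and at 28.1, 28.9 and 30.9 FPKM in KO-labelled ones. Every KO-labelled library was above every WT-labelled one, and the log2 fold change was 0.31 ± 0.10 (SE, limma adjusted p = 0.0846). Mrps30, of the large subunit by structure, was at 46.0, 46.6 and 45.7 FPKM and at 63.7, 61.8 and 49.7 FPKM. Its WT values were tightly grouped and its KO replicate 3 lay nearest to them (0.33 ± 0.11, limma adjusted p = 0.0965).

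Mrpl52, another large subunit protein without a bacterial counterpart, was at 118, 121 and 124 FPKM in WT-labelled libraries and at 181, 165 and 127 FPKM in KO-labelled ones (0.36 ± 0.13, limma adjusted p = 0.102). Here too the library KO replicate 3 was only just above the WT-labelled ones. Without it, Mrpl52 and Mrps30 passed (limma adjusted p = 0.0107 and 0.0173, ranging over the alternatives from 0.0107 to 0.256 for Mrpl52 and from 0.0173 to 0.229 for Mrps30), in a fit that called 14.1% of all genes.

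Mrps34, a small subunit protein specific to mitochondria, was at 12.8, 12.5 and 13.0 FPKM in WT-labelled libraries and at 15.4, 19.0 and 15.5 FPKM in KO-labelled ones (0.35 ± 0.12, limma adjusted p = 0.0998). Mrpl45, which lies at the tunnel exit and tethers the ribosome to the inner membrane, was at 22.9, 24.7 and 29.1 FPKM and at 30.6, 35.2 and 30.7 FPKM (0.32 ± 0.12, limma adjusted p = 0.118). Mrps10, with a bacterial counterpart, was at 8.84, 8.53 and 7.98 FPKM and at 10.8, 12.6 and 8.90 FPKM (0.31 ± 0.15, limma adjusted p = 0.223). The groups of these 3 genes were separate, though for Mrps10 by a gap far smaller than the spread of the KO-labelled libraries.

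Mrpl44, chosen after its values were seen, had the largest estimate of all members (0.37 ± 0.15, limma adjusted p = 0.144). It was at 27.6, 24.8 and 38.1 FPKM in WT-labelled libraries and at 37.5, 38.6 and 39.99 FPKM in KO-labelled ones, so that WT replicate 3 lay among the latter. Without WT replicate 3 it was the 1 member to pass (0.55 ± 0.12, limma adjusted p = 0.0455, with 0.0455 to 0.410 over its alternatives), in a fit that called 4.48% of all genes.

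**Figure D3:**
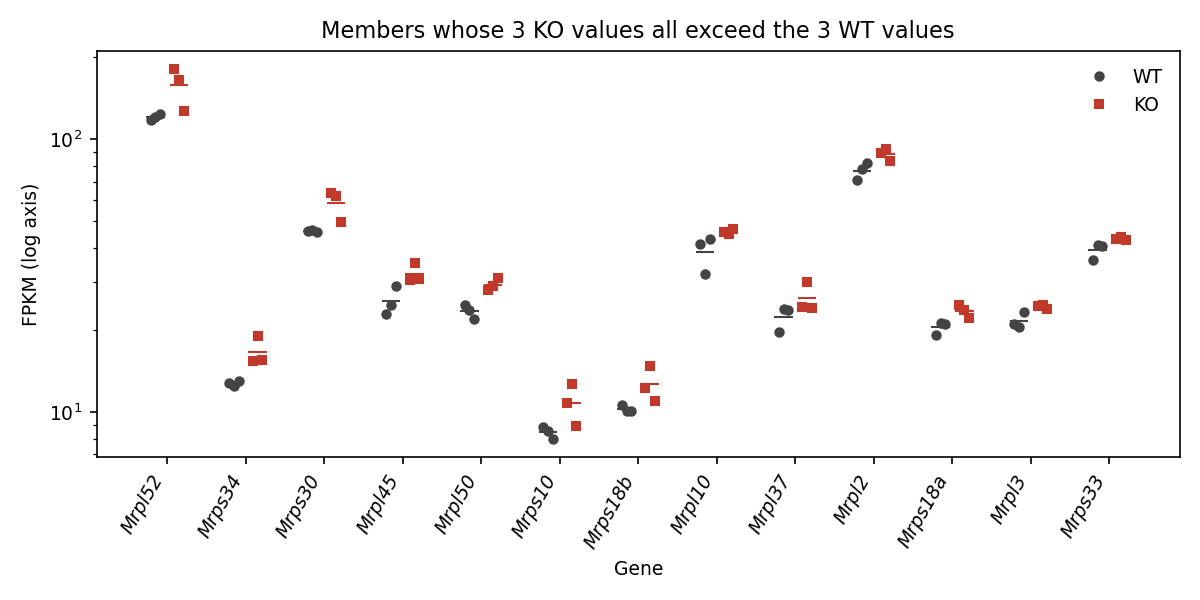
FPKM (y axis, log scale) of the 13 members whose groups do not overlap, with 1 point per library, circles for WT-labelled libraries and squares for KO-labelled ones, in order of replicate from left to right; bars are group means. KO values exceed WT values in each gene, but the gaps are small, as in Mrpl52 (124 against 127 FPKM at the nearest).

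Mrps18a, Mrps18b and Mrps18c descend from 1 bacterial protein, and each takes a place of its own in the ribosome. Mrps18a was at 19.1, 21.2 and 21.1 FPKM in WT-labelled libraries and 24.8, 23.8 and 22.1 FPKM in KO-labelled ones, with separate groups (limma adjusted p = 0.275). Mrps18b was at 10.3 ± 0.266 and 12.7 ± 1.90 FPKM, again separate (0.235). Mrps18c, the highest of the 3 in every library, overlapped at 74.1 ± 11.2 and 75.1 ± 15.8 FPKM (0.981).

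Mrpl12, of the stalk, was at 76.3, 95.7 and 92.2 FPKM in WT-labelled libraries and 103, 133 and 88.2 FPKM in KO-labelled ones (0.28 ± 0.15, limma adjusted p = 0.280), and its groups overlapped. Mrps12, a protein of the decoding site, was at 61.1 ± 7.69 and 62.8 ± 2.59 FPKM, and Mrps36 at 18.2 ± 2.72 and 21.4 ± 5.46 FPKM. Neither passed.

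Members shifted together from library to library. The median deviation of the 75 members from their own mean over all libraries, on the log2(FPKM + 1) scale, was -0.14, -0.03 and 0.07 in WT-labelled libraries 1, 2 and 3 and 0.08, 0.19 and -0.12 in KO-labelled ones. Of the 75 members, 46 (61.3%) were highest in the library KO replicate 2, against 19.2% of all tested genes. The lowest library was WT replicate 1 for 28 members and KO replicate 3 for 26, that is 37.3 and 34.7%, against 15.7 and 19.5% of all tested genes.

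Cytosolic ribosomal proteins and the nuclear subunits of oxidative phosphorylation also shifted as lists. Over 77 cytosolic ribosomal protein genes the medians were -0.09, 0.07 and 0.14 in WT-labelled libraries and 0.03, 0.08 and -0.23 in KO-labelled ones. Over 75 oxidative phosphorylation genes they were -0.14, 0.06 and 0.09, then 0.05, 0.13 and -0.21. All of these lists were thus low in WT replicate 1 and in KO replicate 3, which had 6201091 and 5243137 recovered reads. KO replicate 3 was the shallowest library. WT replicate 1 was nearly equal to WT replicate 3 (6195891) and above WT replicate 2 (5902861). The part of depth in this was not tested. The 3 tested erythroid marker genes summed to 248, 143 and 219 FPKM in WT-labelled libraries and to 340, 508 and 270 FPKM in KO-labelled ones, also highest in KO replicate 2, and their part in the members' levels was not tested. The share of genes with an estimate above 0 was 20.8% for cytosolic ribosomal proteins and 46.7% for oxidative phosphorylation, against 49.7% of all tested genes. Of their genes 0 and 1 passed in limma, where 10.9% of all did, and 6 and 5 had an unadjusted p under 0.05, where 27.5% of all did. The gene that passed was Atp5e, an ATP synthase subunit, which was lower in KO-labelled libraries (-0.53 ± 0.13, limma adjusted p = 0.0322). Its call was lost on leaving out WT replicate 2 or 3 or KO replicate 1 or 3 (0.139, 0.113, 0.0906 and 0.0584), without the filter (0.0879) and without the trend (0.0750), with 0.0188 to 0.250 over its alternatives.

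**Figure D4:**
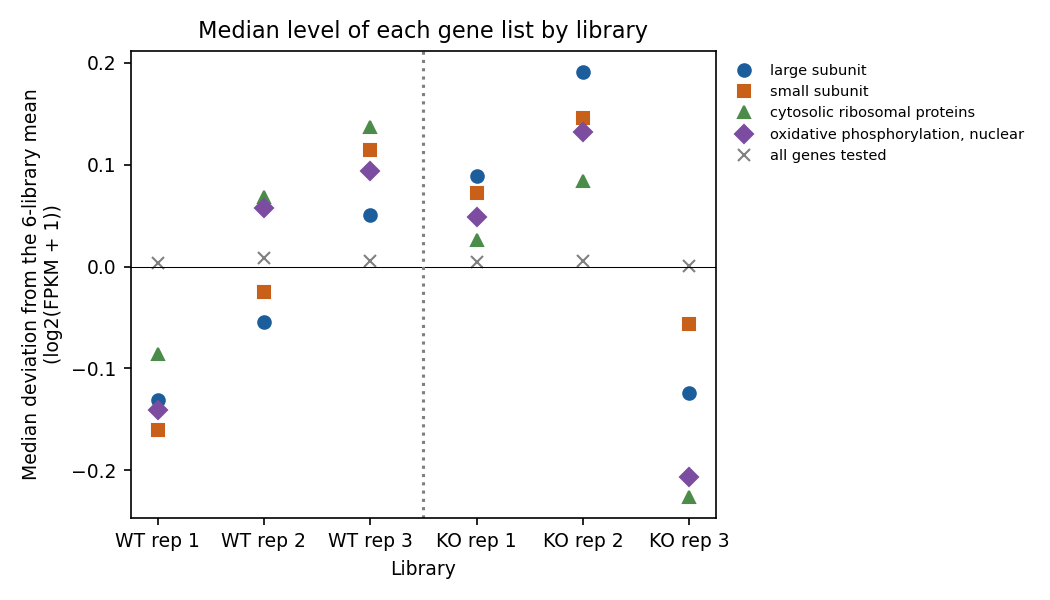
Median deviation of each gene list from the mean over the 6 libraries (y axis, log2(FPKM + 1)) in each library (x axis), with 1 point per list. Mitochondrial ribosomal proteins run from -0.16 to 0.19 and are low in WT replicate 1 and KO replicate 3 together with the other lists, while the median over all tested genes stays near 0.

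The size of the lean depended on which libraries were kept. Without KO replicate 2 the medians were 0.02 in the large and 0.01 in the small subunit, and without KO replicate 3 they were 0.17 and 0.14. With KO replicate 2 as the only KO-labelled library, they were 0.26 and 0.18, and 0 members passed where 4.52% of all genes did. That library is the one in which 46 of the 75 members were highest, so larger medians follow from the choice. Its summed plasma cell level (14.6 FPKM) and Ddx3y level (15.1 FPKM) were near those of the WT-labelled libraries. Without WT replicate 1 the medians were 0.03 and 0.01, and without WT replicate 3 they were 0.14 and 0.14.

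The ribosomal RNAs are the other part of the mitochondrial ribosome. The RNA of the large subunit, mt-Rnr2, was at 502, 458 and 547 FPKM in WT-labelled libraries and at 335, 351 and 397 FPKM in KO-labelled ones. Every KO-labelled library was lower, and mt-Rnr2 fell by 0.48 ± 0.11 on the log2 scale (SE, limma adjusted p = 0.0233). The call was lost on leaving out any WT-labelled library or KO replicate 1 or 2 (0.0836, 0.0612, 0.104, 0.0720 and 0.0617), without the filter (0.0780) and without the mean-variance trend (0.0628), with 0.00758 to 0.104 over its alternatives. The RNA of the small subunit, mt-Rnr1, was at 63.5 ± 14.8 and 51.5 ± 8.74 FPKM, with overlapping groups (-0.28 ± 0.18, limma adjusted p = 0.348). How well cDNA made from polyadenylated RNA represents these RNAs was not tested.

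The 20 tested transcripts encoded by mitochondrial DNA had a median of 0.01. Of these, 3 fell and 0 rose (15%, against 10.9% of all genes in either direction and 5.43% downward). Besides mt-Rnr2 these were mt-Nd3, a subunit of complex I, which fell from 59.8 ± 5.52 to 28.3 ± 5.31 FPKM (-1.07 ± 0.14, limma adjusted p = 0.00267) and passed under every alternative, and mt-Co3, a subunit of cytochrome oxidase. The latter fell from 1923 ± 106 to 1434 ± 52 FPKM (-0.42 ± 0.10, limma adjusted p = 0.0264), a call lost on leaving out any WT-labelled library or KO replicate 1 or 2 (0.1005, 0.0918, 0.131, 0.0787 and 0.0510), without the filter (0.155) and without the trend (0.0582), with 0.00523 to 0.155 over its alternatives.

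Genes that build the mitochondrial ribosome and modify its RNA were represented by 24 symbols, with a median of 0.25. Of these, 3 rose and 0 fell (12.5%, against 10.9% of all genes in either direction and 5.48% upward). Mrm1, a methyltransferase of the large subunit RNA, was at 18.6, 19.0 and 20.1 FPKM in WT-labelled libraries and at 39.2, 29.2 and 32.1 FPKM in KO-labelled ones (0.76 ± 0.13, limma adjusted p = 0.00744). It kept its call with any 1 library left out and missed it (0.0603) with KO replicate 2 as the only KO-labelled library. Rnmtl1, the older symbol of Mrm3, methylates the same RNA and rose from 16.3 ± 1.45 to 24.1 ± 2.13 FPKM (0.54 ± 0.12, limma adjusted p = 0.0214). Ddx28, a helicase of large subunit assembly, rose from 5.45 ± 1.21 to 9.54 ± 1.1 FPKM (0.72 ± 0.17, limma adjusted p = 0.0283).

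Rnmtl1 lost its call on leaving out WT replicate 1 or 2 or KO replicate 2 (limma adjusted p = 0.0791, 0.102 and 0.0606, with 0.0139 to 0.102 over its alternatives). Ddx28 lost it on leaving out WT replicate 1 or 3 or KO replicate 1 or 3 (0.104, 0.103, 0.0758 and 0.0574) and without the filter (0.0786), with 0.0243 to 0.226 over its alternatives. In 10 of the 24 genes every KO-labelled library was above every WT-labelled one (41.7%, against 16.2% of all genes in this direction), and in none were all below.

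Of 7 ribosomal proteins that carry other symbols, 1 passed, upward (14.3%, against 10.9% of all genes in either direction and 5.48% upward). This was Ptcd3, an RNA-binding protein of the small subunit. It was at 34.1, 37.4 and 36.5 FPKM in WT-labelled libraries and 42.8, 62.2 and 50.5 FPKM in KO-labelled ones (0.50 ± 0.14, limma adjusted p = 0.0463). Its call was lost on leaving out any WT-labelled library or KO replicate 2 or 3 (0.147, 0.129, 0.120, 0.103 and 0.0661), without the filter (0.111), with library sums made equal (0.0563) and without the trend (0.0924), with 0.0252 to 0.147 over its alternatives. The other 6 were Dap3, Chchd1, Aurkaip1, Gadd45gip1, Ict1 and Mrp63, and the median of all 7 was 0.20.

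None of 13 tested mitochondrial translation factors passed in limma, where 10.9% of all genes did, and 2 had an unadjusted p under 0.05, where 27.5% of all did. Tufm, the elongation factor that brings in aminoacyl-tRNA, was at 52.9 ± 4.76 and 53.7 ± 8.68 FPKM. None of 15 genes of mitochondrial DNA upkeep and transcription passed (0 at an unadjusted p under 0.05). The packaging factor Tfam was at 15.1 ± 1.02 and 13.9 ± 1.5 FPKM and the polymerase Polrmt at 14.3 ± 2.82 and 13.2 ± 2.84 FPKM. None of 8 tested regulators of mitochondrial biogenesis passed either (1 at an unadjusted p under 0.05). Nrf1 was at 8.23 ± 0.636 and 8.84 ± 1.55 FPKM, Gabpa at 7.04 ± 0.467 and 5.61 ± 1.37 FPKM, and Myc at 153 ± 16.1 and 195 ± 38.2 FPKM. Ppargc1a, below the filter, was at 0.543 to 1.02 FPKM.

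**Figure D5:**
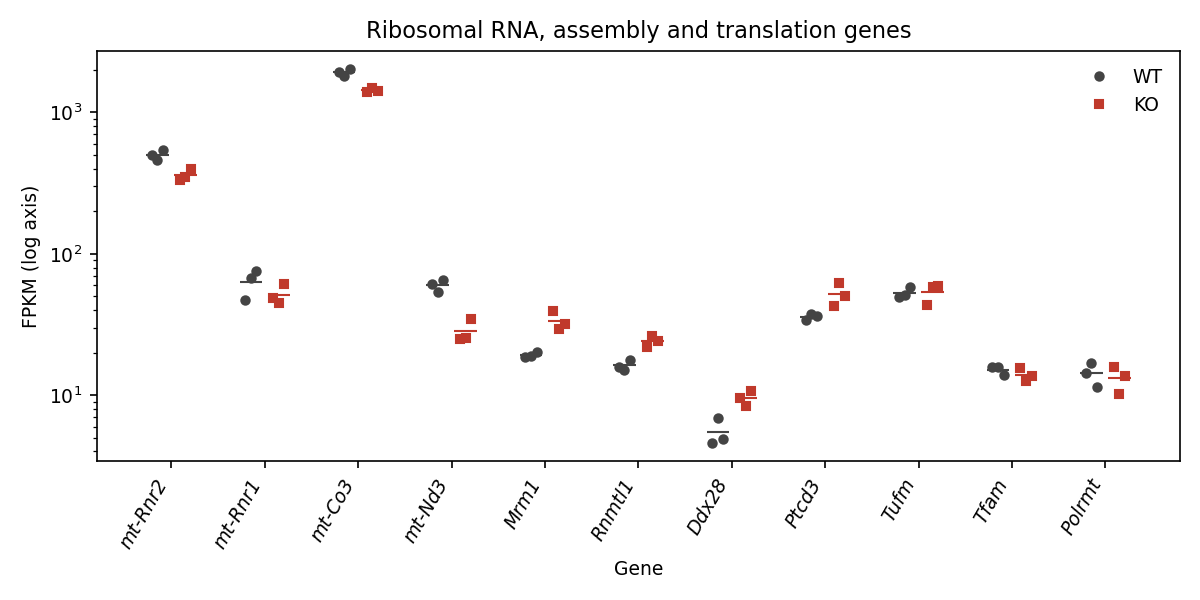
FPKM (y axis, log scale) of mitochondrial ribosomal RNAs, other mitochondrial transcripts, assembly factors and translation genes, with 1 point per library, circles for WT-labelled libraries and squares for KO-labelled ones; bars are group means. The large subunit RNA mt-Rnr2 is lower and the modifying enzymes Mrm1 and Rnmtl1 are higher in every KO-labelled library, while Tufm, Tfam and Polrmt overlap.

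The members lie on 17 chromosomes, with the most, 10, on chromosome 11. In the GENCODE M21 annotation 35 of the 76 overlap a gene of the opposite strand. The kit keeps no strand, so shared stretches cannot be told apart. One such pair is made of 2 members, Mrpl46 (chromosome 7, 78775236 to 78783531, minus strand) and Mrps11 (78783119 to 78792989, plus strand), which overlap at their starts. Mrpl46 was at 36.7, 39.0 and 42.7 FPKM in WT-labelled libraries and at 41.8, 46.5 and 31.8 FPKM in KO-labelled ones. Mrps11 was at 24.0, 23.4 and 23.3 FPKM and at 25.7, 30.1 and 20.6 FPKM. Both were highest in KO replicate 2 and lowest in KO replicate 3, and neither differed beyond the spread of its replicates.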

How the data were processed

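The deposited table holds FPKM values for 38926 gene symbols in 6 libraries, made by the authors from SMART-Seq v4 cDNA and Nextera XT libraries, per the labels' protocols. The submitters' processing notes name DESeq2 1.18.1, HTSeq 0.6.1, TopHat2 2.1.1, bcl2fastq 2.19.1.403 and the mm10 build, with no role or order. No source used here names the annotation. Whole reads were recovered from the ratios of FPKM between libraries and from exon lengths in GENCODE M21. The ratios were whole numbers in each of the 17183 genes detected in at least 2 libraries (relative tolerance 1e-10), and the length matched for 39 of 76 members. For the rest, recovered reads are the smallest whole numbers in that ratio that also make the implied gene length whole, hence lower bounds. The KO-labelled and WT-labelled libraries were compared in limma 3.58.1 (R 4.3.3, moderated by eBayes under a mean-variance trend) on log2(FPKM + 1). Genes entered when their mean reached 1 FPKM, with two-sided p-values adjusted by Benjamini-Hochberg over all of them. The added 1 makes fold changes of low genes too small. Lists were described by counts and medians without a test. The test and the read recovery were tested on simulated data. Python 3.11.15, numpy 2.4.6, pandas 2.3.3 and matplotlib 3.10.9 were used.

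Members, lists and alternatives were chosen with earlier results of these data known. The genes named are the called members (there were none), the 3 highest and 3 lowest tested members of each subunit, the 6 largest differences among members whose groups do not overlap, those whose symbol hides their place or that have a paralog (with Mrpl12 and Mrps12), up to 4 called genes per related list, 7 set regulators and factors, both receptors, and the members nearest the filter. Replicate numbers are shared by both groups, but the deviations of same-numbered libraries correlated at -0.03, 0.05 and -0.12, so they were not treated as pairs. Some marker genes of the lists are not reported here.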

Additional observations from a re-analysis of the deposited data

How the results depend on the processing

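Of the members, 0 were called in every setting that keeps the 6 libraries (other pseudocount, filters, scalings, no trend, voom, the replicate block). Of the scalings, median-of-ratios could hardly change a call, because its factor was the same (1.009) in all 6 libraries. With 1 library left out, calls ranged from 0 to 1 in each subunit. The count over all genes, 1240, was 588 without a filter, 805 with the replicate block, 514 without the KO replicates 1 and 3, and 370 to 1598 with 1 library left out. With the block, Rnmtl1, Ddx28, Ptcd3 and mt-Co3 also lost their calls (limma adjusted p = 0.0525, 0.0653, 0.0531 and 0.0983). Without the KO replicates 1 and 3, the large subunit median was 0.256 and the difference between subunits 0.0795. There the lone library is assumed to vary like the other group. With 1 library left out, medians ran from 0.0169 to 0.174 in the large and 0.00868 to 0.139 in the small subunit.

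Some estimates, none of them called, changed sign, among them that of Mrps5, the lowest of all members at -0.18. With library sums made equal, Mrpl1 was at -0.00785 and Mrps18c at -0.000179. Without the KO replicates 1 and 3, Mrpl1 was at -0.0180, Mrps25 at 0.0510 and Mrps5 at 0.0337. With 1 library left out, the estimates ran from -0.00844 to 0.0731 for Mrpl34, -0.0346 to 0.171 for Mrpl28, -0.00430 to 0.187 for Mrpl42, -0.0588 to 0.0520 for Mrpl1 and -0.0418 to 0.143 for Mrpl48. In the small subunit they ran from -0.124 to 0.182 for Mrps18c, -0.0759 to 0.225 for Mrps28, -0.0749 to 0.160 for Mrps16, -0.227 to 0.0777 for Mrps25 and -0.0425 to 0.136 for Mrps12. For Polrmt, Nrf1 and Tufm the ranges were -0.252 to 0.0528, -0.0324 to 0.195 and -0.0621 to 0.151. The cause was not tested.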
